A study of Mus musculus with 10 samples.

Results

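The mitochondrial shape genes followed here in brown adipose tissue with an adipocyte deletion of cardiolipin synthase were Opa1, Mfn1, Mfn2, Dnm1l, Fis1, Mff, Immt, Chchd3, Phb and Phb2. They were chosen by name, for their roles in fusion, fission and the folding of the inner membrane, and all 10 were found among the 15075 genes of the deposited table.

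Mitochondria continuously fuse and divide. Mitofusins join the outer membranes and the dynamin-like GTPase OPA1 joins the inner ones, whereas division is carried out by the cytosolic dynamin DRP1, the product of Dnm1l, which is recruited to the outer membrane by adaptors such as MFF and FIS1. The inner membrane is folded into cristae, whose necks are held by the MICOS complex built around mitofilin (Immt), and prohibitin rings in the same membrane stabilise OPA1. Cardiolipin is the signature phospholipid of this membrane, and brown adipocytes are packed with mitochondria rich in cristae.

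Interscapular brown adipose tissue (iBAT) was taken from 20-week-old C57BL/6 mice housed at room temperature, and polyadenylated RNA was sequenced from 5 Control and 5 AdCKO samples with 1 library each. AdCKO mice carry a floxed Crls1 allele, in which exon 4 of cardiolipin synthase is flanked by loxP sites, together with Adipoq-Cre. Control animals have the same floxed allele but no Cre, and their labels read wild-type. Adipoq-Cre is active in white as well as brown adipocytes, and the sex of these mice was not given in the sources used here. Values are normalized reads per kb of counted exon (RPKb), 1 RefSeq transcript was counted per gene, and positions refer to mm9. A gene was called changed at a limma adjusted p under 0.01, and fold changes are AdCKO over Control on the scale of log2(value + 1). Sequencing depth before normalization is unknown.

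Crls1, the deleted gene, followed the labels. Its levels were 1291, 927, 813, 1101 and 1170 RPKb in Control 1 to 5 and 193, 195, 249, 208 and 242 in AdCKO 1 to 5. Every AdCKO library was below every Control library, with a fold change of -2.27 ± 0.13 on the log2 scale (SE; adjusted p by limma 3.53e-08), although the count covers the whole transcript and not exon 4 alone. The tissue carried its defining transcripts in both groups: the thermogenic uncoupler Ucp1 lay between 24203 and 46570 RPKb in Control and between 7895 and 18828 in AdCKO.

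Transcripts of other cells differed between the groups and within AdCKO. The summed level of 8 macrophage markers, led by Lyz2 and Cd68, was 428 to 1222 RPKb in Control against 5845 to 7863 in AdCKO libraries, and 8 of 8 were called higher. That of 6 fibroblast markers, led by Dcn and Col3a1, was 968 to 1282 in Control against 4134 to 5835 in AdCKO libraries, and 6 of 6 were higher. Of 8 adipocyte markers, led by Fabp4 and Ucp1, 6 were lower and 1, the lipase Lpl, was higher, and their sum was 227298 to 249835 in Control and 151349 to 173404 in AdCKO. Of 6 endothelial markers, led by Cdh5 and Pecam1, 1 was lower and 1 higher, with sums of 1469 to 1859 and 1472 to 1983. The 12 skeletal muscle markers, led by Acta1 and Ckm, summed to 482 to 516 in Control, to 7885, 30401 and 11473 in AdCKO 1, 2 and 4, and to 302 and 310 in AdCKO 3 and 5. No marker was at 0 in any library. The part of these cells in the results was not tested, and in whole tissue fewer cells of a type and less RNA per cell cannot be told apart.

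Most transcripts of the fusion, fission and cristae machinery were lower in AdCKO iBAT. With values as deposited, 8 of the 10 genes fell, of which Dnm1l, Mff and Phb turned positive when libraries were scaled to the same total, 0 rose (limma; also 0 at an unadjusted p under 0.05), and Mfn1 and Fis1 did not pass the test. Across all 11244 genes tested, 28.0% were called lower and 25.6% higher. The same 8 genes had every AdCKO library below every Control library, a pattern found in 26.4% of all tested genes (24.5% had every AdCKO library above), and the median log2 fold change was -0.45 over the 10 genes and -0.01 over all tested genes. The largest falls were those of Immt and Opa1, whose mean levels in AdCKO were 46.3% and 48.6% of the Control means. The levels of all 10 genes passed the filter of a mean of at least 10 RPKb.

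**Figure D1:**
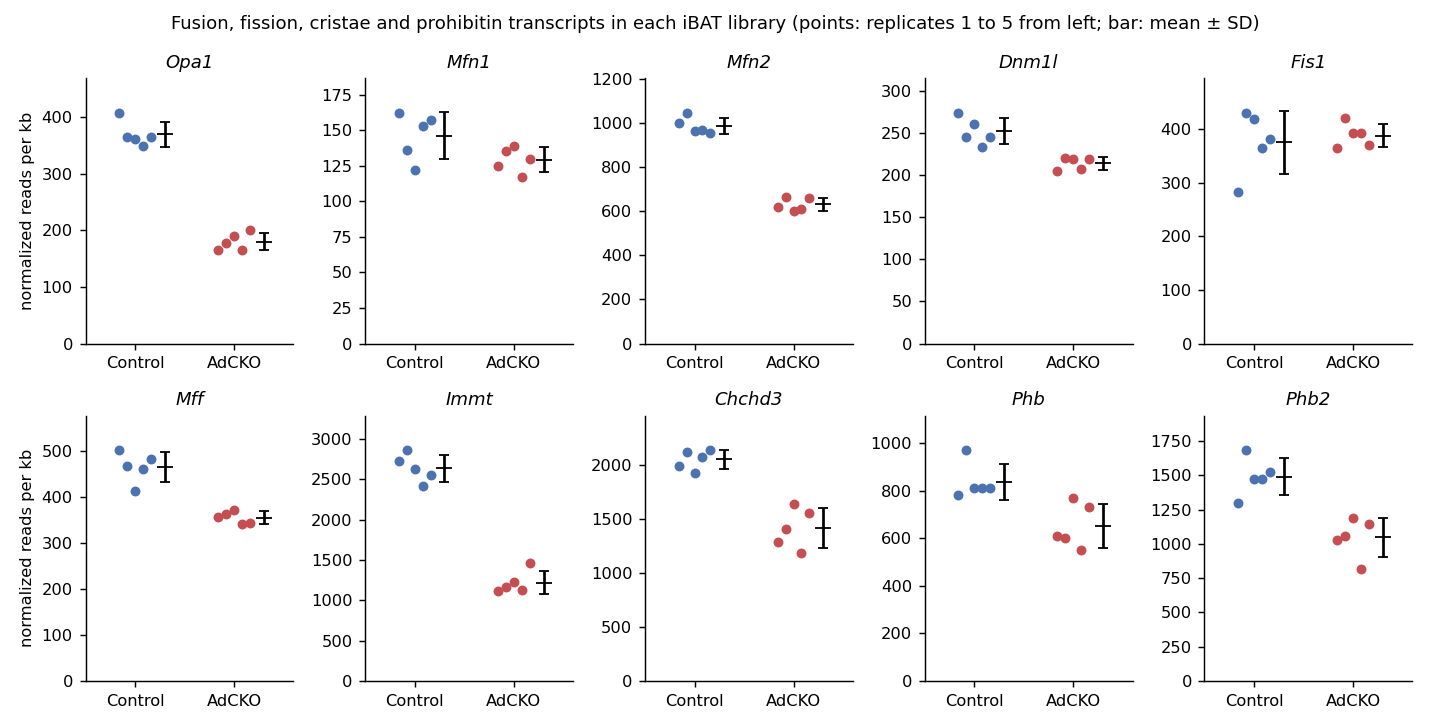
Normalized reads per kb (vertical axis, from 0) of each of the 10 genes in 5 Control (blue) and 5 AdCKO (red) iBAT libraries, 1 point per library, with the group mean ± SD as a bar. The groups are apart for 8 genes and overlap for Mfn1 and Fis1; the order of the groups for Dnm1l, Mff and Phb, but not for Opa1 and Immt, changes if libraries are scaled to the same total.

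The promoters of the genes that fell most, Opa1 and Immt, and of the genes that did not pass the test, Mfn1 and Fis1, are shown so that their sequences can be set side by side. Each runs from 250 bases before to 50 bases after the RefSeq start site, 5′ to 3′ on the gene's strand, in GRCm38.p6, a later build than that of the expression table. Capitals mark matches to any of 5 motifs searched on both strands. Opa1 lies at chr16:29579084-29579383, Immt at chr6:71831070-71831369, Mfn1 at chr3:32529232-32529531 and Fis1, the more upstream of its 2 windows, at chr5:136953025-136953324, all on the plus strand.
Opa1: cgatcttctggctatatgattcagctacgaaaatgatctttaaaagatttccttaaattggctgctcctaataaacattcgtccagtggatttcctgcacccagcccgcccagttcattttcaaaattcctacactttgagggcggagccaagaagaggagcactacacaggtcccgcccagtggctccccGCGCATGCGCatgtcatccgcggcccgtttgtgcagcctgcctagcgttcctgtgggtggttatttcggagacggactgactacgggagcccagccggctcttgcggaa
Immt: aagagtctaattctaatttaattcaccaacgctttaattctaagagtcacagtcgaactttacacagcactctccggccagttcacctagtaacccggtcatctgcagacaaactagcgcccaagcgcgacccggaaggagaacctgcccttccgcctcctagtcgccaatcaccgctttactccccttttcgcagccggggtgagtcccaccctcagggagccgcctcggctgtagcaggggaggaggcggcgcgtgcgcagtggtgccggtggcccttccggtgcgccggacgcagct
Mfn1: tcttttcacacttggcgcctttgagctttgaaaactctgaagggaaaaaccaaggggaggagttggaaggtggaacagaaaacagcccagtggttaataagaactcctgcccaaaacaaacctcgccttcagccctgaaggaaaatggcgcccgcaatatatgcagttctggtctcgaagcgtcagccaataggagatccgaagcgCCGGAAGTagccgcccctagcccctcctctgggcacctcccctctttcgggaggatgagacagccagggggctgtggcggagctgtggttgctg
Fis1: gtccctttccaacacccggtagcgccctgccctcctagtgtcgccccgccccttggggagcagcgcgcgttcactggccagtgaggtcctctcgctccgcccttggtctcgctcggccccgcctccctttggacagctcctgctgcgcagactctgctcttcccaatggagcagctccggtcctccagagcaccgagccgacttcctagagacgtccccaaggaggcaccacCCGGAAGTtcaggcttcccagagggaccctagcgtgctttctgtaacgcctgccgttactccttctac

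The Opa1 window held the element of NRF1, a regulator of nuclear genes for mitochondrial proteins, searched as its core GCGCATGC, on both strands in overlapping positions that start 59 and 57 bases before the start site. This sequence was present in 2.73% of 32544 distinct promoter windows. Variants of it were not searched, so a window without a match, such as that of Immt, may hold another form of the element. The ETS element CCGGAAGT, bound by factors such as GABPA, was present in 3.92% of windows and occurred once in the Mfn1 window, once in each Fis1 window and 3 times in the Phb2 window. The estrogen-related receptor element TCAAGGTCA (0.412% of windows), the composite element of ATF4 and C/EBP, TGATGNAA (3.91%), and the cAMP response element TGACGTCA (1.80%) had no match in the 15 windows of the 10 genes. Windows of 4 of the 10 genes therefore held a match to the exact sequences searched. They belonged to genes that fell (Opa1, Phb2) and to genes that did not pass the test (Mfn1, Fis1).

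Among the fusion genes, Opa1 and Mfn2 fell and Mfn1 did not pass the test. Opa1 (NM_133752, chromosome 16, 29579420 to 29654688, plus strand) encodes the inner-membrane fusion GTPase. It measured 407, 365, 362, 349 and 365 RPKb in Control 1 to 5 and 165, 177, 190, 166 and 200 in AdCKO 1 to 5. The highest AdCKO value was well below the lowest Control value. The means were 370 ± 21.9 (SD, n = 5) and 180 ± 15.3 RPKb, and AdCKO differed by -1.04 ± 0.07 on the log2 scale (SE; adjusted p by limma 1.77e-07), and 5.68% of tested genes had a lower one.

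Mfn2 (NM_001285921, chromosome 4, 147247695 to 147279018, minus strand) encodes the mitofusin that also tethers mitochondria to the endoplasmic reticulum. It measured 999, 1046, 963, 971 and 954 RPKb in Control 1 to 5 and 621, 667, 602, 611 and 662 in AdCKO 1 to 5. The 2 groups were tight and far apart. The means were 986 ± 37.1 (SD, n = 5) and 633 ± 30.1 RPKb, and AdCKO differed by -0.64 ± 0.06 on the log2 scale (SE; adjusted p by limma 1.83e-06).

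Mfn1 (NM_024200, chromosome 3, 32428404 to 32478147, plus strand) encodes the other mitofusin. Its levels were 162, 136, 122, 153 and 157 RPKb in Control 1 to 5 and 125, 135, 139, 117 and 130 in AdCKO 1 to 5. The groups overlapped, since Control 3 was below 4 of the AdCKO libraries. AdCKO differed by -0.17 ± 0.09 on the log2 scale (SE; 95% interval -0.36 to 0.02; adjusted p by limma 0.103).

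Of the fission genes, Dnm1l and Mff were called lower and Fis1 was not called. Dnm1l (NM_001276340, chromosome 16, 16312321 to 16359124, minus strand), which encodes the dynamin that constricts mitochondria, measured 274, 246, 261, 234 and 246 RPKb in Control 1 to 5 and 205, 220, 219, 207 and 219 in AdCKO 1 to 5. The groups did not overlap, but the lowest Control library was close to the highest AdCKO library. With means of 252.2 ± 15.5 (SD, n = 5) and 214 ± 7.36 RPKb, AdCKO differed by -0.23 ± 0.06 on the log2 scale (SE; adjusted p by limma 0.00459), against 0.24 with equal library totals. The call was lost (adjusted p between 0.0107 and 0.0145) without Control 1, Control 3, AdCKO 1 or AdCKO 4.

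Mff (NM_029409, chromosome 1, 82721493 to 82748964, plus strand) encodes the main outer-membrane receptor for DRP1. It measured 501, 468, 412, 461 and 483 RPKb in Control 1 to 5 and 356, 363, 372, 340 and 344 in AdCKO 1 to 5. All AdCKO libraries lay below all Control libraries. The means were 465 ± 33.5 (SD, n = 5) and 355 ± 13 RPKb, and AdCKO differed by -0.39 ± 0.07 on the log2 scale (SE; adjusted p by limma 0.000233), against 0.10 with equal library totals. A noncoding RNA on the opposite strand, C430014B12Rik, shares 195 exonic bases with Mff in GENCODE M1, and whether strand was used in counting was not given in the sources used here.

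Fis1 (NM_001163243, chromosome 5, 137429145 to 137442104, plus strand) encodes a small tail-anchored protein of the outer membrane that binds fission factors. Its levels were 282, 430, 419, 365 and 381 RPKb in Control 1 to 5 and 365, 420, 392, 392 and 370 in AdCKO 1 to 5. All AdCKO values lay within the Control range, and Control 1 was the lowest of the 10 libraries. AdCKO differed by 0.06 ± 0.10 on the log2 scale (SE; 95% interval -0.17 to 0.29; adjusted p by limma 0.632), and without Control 1 it was -0.04 (adjusted p = 0.66).

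Both MICOS genes fell, Immt by more than Chchd3. Immt (NM_029673, chromosome 6, 71781314 to 71825260, plus strand) encodes mitofilin, the core of the complex at crista junctions. It measured 2722, 2860, 2631, 2413 and 2560 RPKb in Control 1 to 5 and 1119, 1171, 1223, 1127 and 1460 in AdCKO 1 to 5. Every AdCKO library was far below the lowest Control library. The means were 2637 ± 168 (SD, n = 5) and 1220 ± 140 RPKb, and AdCKO differed by -1.12 ± 0.09 on the log2 scale (SE; adjusted p by limma 4.16e-07), and 4.65% of tested genes had a lower one.

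Chchd3 (NM_025336, chromosome 6, 32742227 to 33010152, minus strand) encodes a MICOS subunit that faces the intermembrane space and binds mitofilin. It measured 1993, 2124, 1926, 2075 and 2135 RPKb in Control 1 to 5 and 1285, 1408, 1636, 1189 and 1558 in AdCKO 1 to 5. The groups did not overlap, and AdCKO 3 and 5 were the highest AdCKO libraries. The means were 2051 ± 89.5 (SD, n = 5) and 1415 ± 185 RPKb, and AdCKO differed by -0.54 ± 0.09 on the log2 scale (SE; adjusted p by limma 0.00023). The call was lost with equal library totals (-0.06, adjusted p = 0.539) and after quantile normalization (-0.05, 0.637).

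The prohibitins, which assemble with each other into rings in the inner membrane, were both called lower with values as deposited. Phb2 (NM_007531, chromosome 6, 124662307 to 124666963, plus strand) measured 1298, 1683, 1472, 1477 and 1527 RPKb in Control 1 to 5 and 1031, 1060, 1190, 816 and 1142 in AdCKO 1 to 5. All AdCKO libraries lay below Control, with AdCKO 4 the lowest. The means were 1491 ± 138 (SD, n = 5) and 1048 ± 144 RPKb, and AdCKO differed by -0.52 ± 0.11 on the log2 scale (SE; adjusted p by limma 0.000998). The call was lost with equal library totals (-0.03, adjusted p = 0.771) and after quantile normalization (-0.14, 0.225). In GENCODE M1 a small nucleolar RNA on the same strand shares 155 exonic bases with Phb2, and Gm15884 on the opposite strand shares 141.

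Phb (NM_008831, chromosome 11, 95528271 to 95542087, plus strand) measured 784, 971, 813, 812 and 813 RPKb in Control 1 to 5 and 611, 604, 769, 550 and 732 in AdCKO 1 to 5. The groups did not overlap, but AdCKO 3 came close to Control 1. With means of 839 ± 74.9 (SD, n = 5) and 653 ± 92.8 RPKb, AdCKO differed by -0.37 ± 0.10 on the log2 scale (SE; adjusted p by limma 0.00643), against 0.11 with equal library totals. The call was lost (adjusted p between 0.011 and 0.0175) without any one of Control 2 to 5 or AdCKO 1, 2 or 4. The value is also uncertain because the genome holds a copy that is 99.8% identical to Phb over 56.0% of its transcript, and how reads with several matches were counted was not given in the sources used here. No such copy (at least 95% identical over at least 50% of the transcript) was found for the other 9 genes.

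The order of the 10 genes by RPKb differed between the groups. Values per kb adjust for counted length only, so other differences between genes in how reads are captured or matched remain in this order. In Control iBAT it ran from Immt (2637 RPKb) through Chchd3 (2051), Phb2 (1491), Mfn2 (986), Phb (839), Mff (465), Fis1 (376), Opa1 (370) and Dnm1l (252.2) to Mfn1 (146). Neighbours whose ranges overlapped were Mfn2 with Phb, Mff with Fis1, and Fis1 with Opa1. In AdCKO iBAT Chchd3 (1415) came first and Immt (1220) second, with overlapping ranges, and Opa1 (180) came after Dnm1l (214), with ranges apart. Immt, with the highest level of the 10 in Control, stood above 98.8% of all genes in the table there and above 98% in AdCKO, whereas Opa1 moved from above 90.6% to above 82.8%.

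The falls depended on how libraries were scaled, because the normalized reads of AdCKO libraries summed to less (5419800 to 5843024) than those of Control libraries (7615403 to 8171138). When every library was scaled to the same total, the all-gene median of the log2 fold changes moved from -0.01 to 0.46, and 9.77% of genes were called lower and 60.6% higher. Only Opa1 (-0.56, limma adjusted p = 1.59e-05) and Immt (-0.64, 1.2e-05) were then called lower among the 10. Mfn1 (0.31), Dnm1l (0.24) and Fis1 (0.54) were called higher on that scale, Mff (0.10) and Phb (0.11) turned positive without a call, and Mfn2 (-0.16), Chchd3 (-0.06) and Phb2 (-0.03) kept their sign without one.

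Quantile normalization gave another scale, with a median of -0.09 over all genes, 31.2% of genes called lower and 22.0% higher. Opa1 (-0.92), Mfn2 (-0.39) and Immt (-0.67) were called lower on it (limma), and none of the 10 higher. Relative to the median of all genes, Opa1 lay at -1.03 on the deposited scale, -1.02 with equal totals and -0.83 after quantile normalization, and Immt at -1.11, -1.10 and -0.58. These were the genes called lower on all 3 scales, and the share of all tested genes so called was not counted.

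**Figure D2:**
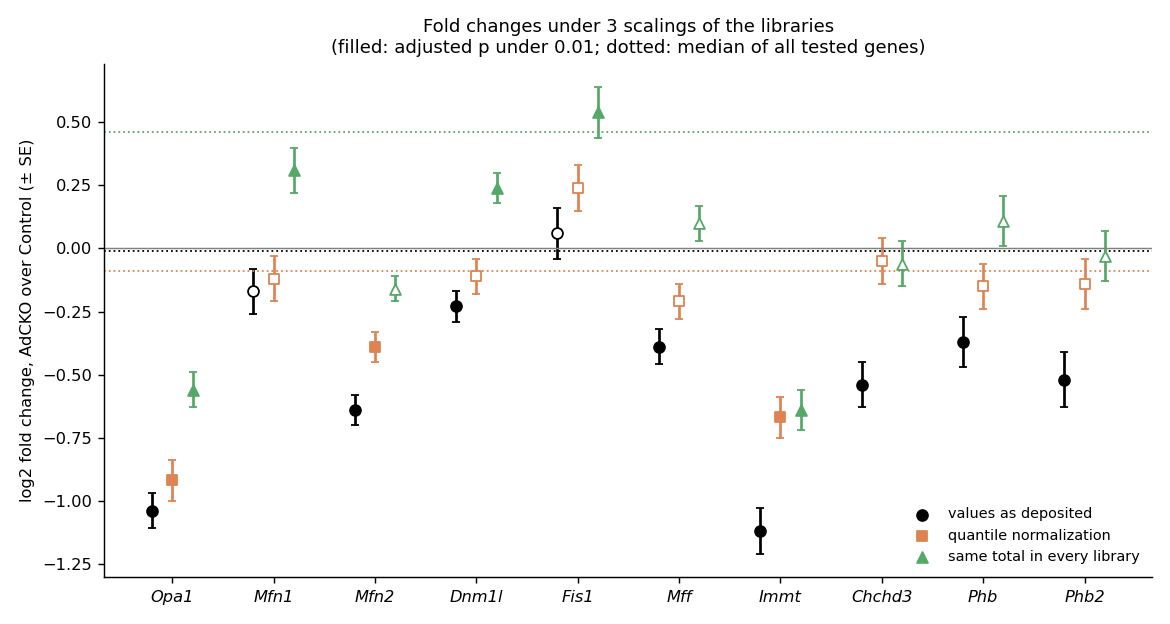
Log2 fold change, AdCKO over Control, with its SE (vertical axis) for the 10 genes (horizontal axis) with values as deposited (black), after quantile normalization (orange) and with equal library totals (green). Filled symbols passed an adjusted p under 0.01, dotted lines are the medians of all tested genes (-0.01, -0.09 and 0.46), and only Opa1 and Immt have 3 filled symbols below 0.

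The ratio of 2 genes within a library does not change when the library is scaled by a common factor. For 7 pairs the log2 ratio (pseudocount 1) was tested between the groups by two-sided exact permutation, with adjustment over the 7 pairs. In 6 of 7 pairs every AdCKO library lay below every Control library, with p = 0.0079 in the permutation test, the smallest that 5 against 5 can give, and 0.0093 after adjustment. Of all tested single genes, 26.4% had every AdCKO library below every Control library and 24.5% had every one above. The pairs were chosen with earlier results known, and how often other pairs separate the groups was not counted.

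Opa1 over Dnm1l, the ratio of the inner-membrane fusion dynamin to the fission dynamin, differed most. It was 1.48, 1.48, 1.39, 1.49 and 1.49 in Control 1 to 5 and 0.804, 0.803, 0.869, 0.802 and 0.914 in AdCKO 1 to 5. Opa1 thus exceeded Dnm1l in every Control library and was below it in every AdCKO library, a difference of -0.81 in log2 ratio.

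Between the inner- and outer-membrane fusion genes, Opa1 over Mfn2 was 0.407, 0.349, 0.376, 0.359 and 0.383 in Control 1 to 5 and 0.265, 0.265, 0.316, 0.272 and 0.302 in AdCKO 1 to 5, a difference of -0.40. The 2 mitofusins also differed unequally, Mfn2 over Mfn1 being 6.18, 7.71, 7.92, 6.33 and 6.08 in Control 1 to 5 and 4.99, 4.95, 4.33, 5.24 and 5.1 in AdCKO 1 to 5 (-0.47). Mfn2 therefore stayed the mitofusin with the higher RPKb in all 10 libraries, by a smaller factor in AdCKO.

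For the fission adaptors, Mff over Fis1 was 1.77, 1.09, 0.984, 1.26 and 1.27 in Control 1 to 5 and 0.973, 0.866, 0.948, 0.868 and 0.931 in AdCKO 1 to 5 (-0.45). The gap between Control 3 and AdCKO 1 was small. For the MICOS partners, Immt over Chchd3 was 1.37, 1.35, 1.37, 1.16 and 1.2 in Control 1 to 5 and 0.871, 0.831, 0.747, 0.948 and 0.937 in AdCKO 1 to 5 (-0.57), so that Immt was the higher transcript in every Control library and the lower in every AdCKO library.

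The prohibitin ratio was the exception. Phb2 over Phb was 1.66, 1.73, 1.81, 1.82 and 1.88 in Control 1 to 5 and 1.69, 1.76, 1.55, 1.48 and 1.56 in AdCKO 1 to 5, with overlapping groups and a difference of -0.15 (exact permutation p = 0.04, adjusted 0.04). It did not pass without any one of Control 3, 4 or 5 or AdCKO 3, 4 or 5. Among the proteases that cut OPA1, the stress-activated Oma1 over Yme1l1 was 0.354 to 0.435 in Control iBAT against 0.231 to 0.332 in AdCKO iBAT, a difference of -0.37.

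**Figure D3:**
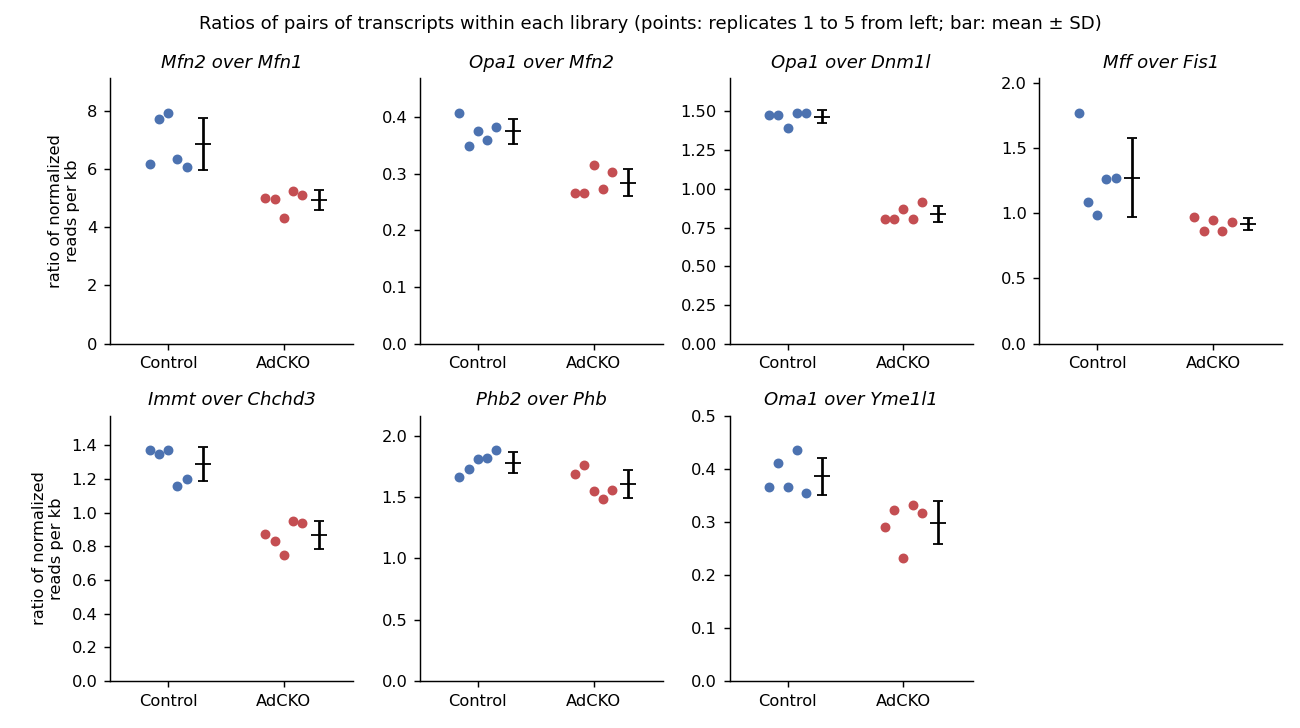
Ratio of normalized reads per kb of 2 genes in the same library (vertical axis, from 0) for 7 pairs in 5 Control (blue) and 5 AdCKO (red) iBAT libraries, with the group mean ± SD as a bar. The groups are apart in 6 pairs and overlap for Phb2 over Phb.

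Within AdCKO, 5 of the 10 genes were highest in the same libraries. Opa1, Immt, Chchd3, Phb and Phb2 were each higher in AdCKO 3 and 5 than in AdCKO 1, 2 and 4, as were 15.8% of all tested genes. Phb, for example, was 91.7% and 87.3% of its Control mean in AdCKO 3 and 5, against 72.8%, 72% and 65.6% in AdCKO 1, 2 and 4. No such split was seen for Mfn1, Mfn2, Dnm1l, Fis1 and Mff. Among the 43 further genes described below it was seen for 16, of the outer membrane (Mtch2, Akap1, Rhot2) as well as the inner (Apool, Afg3l2), and not for the inner-membrane genes Spg7, Letm1, Stoml2, Chchd6 and Oma1. The same split was shown by 21 of 36 subunits of respiratory complex I and 11 of 22 genes of mitochondrial protein import. It was therefore not particular to the genes of mitochondrial shape.

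Markers of several cell types differed between the same libraries. In AdCKO 3 and 5 the skeletal muscle sum (302 and 310 RPKb) lay below that of Control and far below that of AdCKO 1, 2 and 4. Most of the Control sum was Myl1 (330 to 397 RPKb), which was 138 and 159 in AdCKO 3 and 5. Acta1 went the other way, at 93.3 and 74.5 in AdCKO 3 and 5 against 39.4 to 56.1 in Control. Ucp1 was 18077 and 18828 RPKb in AdCKO 3 and 5, against 12861, 12683 and 7895 in AdCKO 1, 2 and 4. Cidea, a lipid droplet protein of brown adipocytes named after its values were seen, was 5710 and 10995, against 4602, 5004 and 4722. The split was shown by 3 of the 8 adipocyte markers. The reverse held for Adipoq (3324 and 3786, against 4890, 5032 and 3894) and Cidec (3148 and 3894, against 5348, 5998 and 5213). The endothelial sum was 1983 and 1826, against 1472, 1472 and 1560, and 6 of 6 endothelial markers were higher in AdCKO 3 and 5. The part of the muscle, adipocyte and endothelial markers in the split was not tested.

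With AdCKO limited to libraries 3 and 5, a choice made after the marker levels were seen, 3 of the 10 genes were called lower. They were Opa1 (-0.92, limma adjusted p = 2.46e-05), Immt (-0.98, 5.77e-05) and Mfn2 (-0.64, 0.000236). Chchd3 (-0.36, adjusted p = 0.0113), Mff (-0.37, 0.0105), Phb2 (-0.35, 0.0243), Dnm1l (-0.20, 0.0988) and Phb (-0.16, 0.246) did not pass in these libraries. Mff and Dnm1l lay near their values with all AdCKO libraries (-0.39 and -0.23), but with a larger SE (0.10 against 0.07 and 0.06). Chchd3 (-0.54 with all), Phb2 (-0.52) and Phb (-0.37) differed by less. With fewer libraries the test has less power, and the share of all tested genes called in this setting was not counted.

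**Figure D4:**
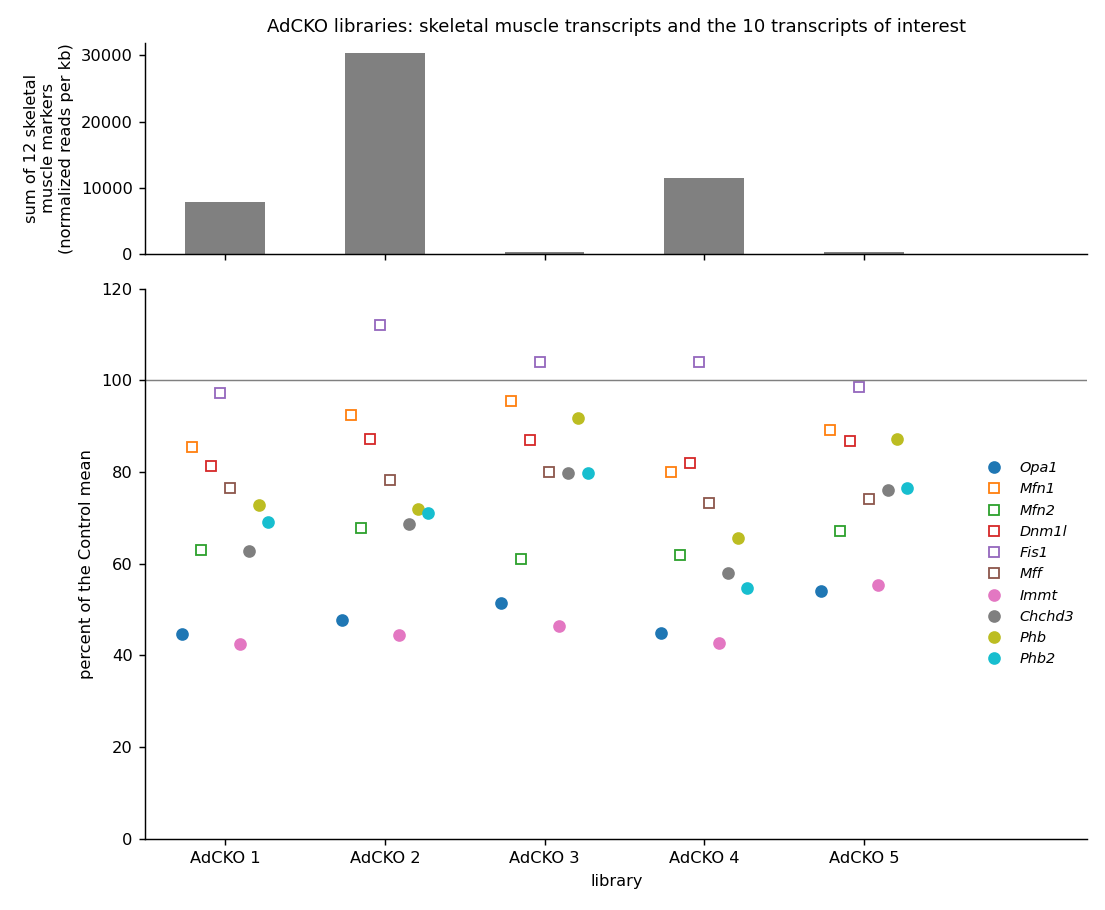
Upper panel, summed normalized reads per kb of 12 skeletal muscle markers in AdCKO 1 to 5; lower panel, each of the 10 genes as percent of its Control mean in the same libraries (filled circles for Opa1, Immt, Chchd3, Phb and Phb2, open squares for the others). The filled circles of a gene are highest in AdCKO 3 and 5, where the marker sums are 302 and 310. Values are as deposited.

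Most genes of the wider machinery were lower as well. Of 43 further genes in 5 lists, 40 passed the filter, 29 were lower, 1 was higher and 10 did not pass the test (limma), with a median log2 fold change of -0.49, while 28.0% of all tested genes were lower and 25.6% higher. Of the 43, 27 had every AdCKO library below every Control library and 2 had every AdCKO library above (26.4% and 24.5% of all tested genes). These 2 were Pdzd8 and, below the filter and named after its values were seen, Mtfr2 (2.14 to 2.64 RPKb in Control and 2.97 to 3.67 in AdCKO). With equal library totals 14 were called lower and 9 higher, against 9.77% and 60.6% of all genes. These shares of all genes, as deposited and with equal totals, also stand beside the counts of each list below. The direction of 14 of the 40 tested genes turned on at least 1 of the other 2 scales, whereas 14 were called lower on all 3 scales. The shares of all tested genes that did so were not counted.

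Of 9 other MICOS and bridging subunits, 8 fell and Mtx1 (-0.27, limma adjusted p = 0.0179) did not pass, except without Control 1 (adjusted p = 0.00489). With equal library totals 4 were called lower and 0 higher. Apool, a cardiolipin-binding MICOS subunit, fell from 321 ± 18.3 (SD, n = 5) to 164 ± 16.1 RPKb (-0.96 ± 0.08 SE, adjusted p = 4.99e-07). Samm50, the outer-membrane assembly protein that links MICOS to the surface, fell from 1127 ± 67 to 645 ± 75.9 RPKb (-0.81 ± 0.09). The MICOS subunits Chchd6 (-0.88 ± 0.10) and 2410015M20Rik, now named Micos13 (-0.92 ± 0.13), fell likewise. All 4 kept their direction on the 3 scales. Mtx2 (-0.41) and Dnajc11 (-0.37) also fell, but lay at 0.07 and 0.11 with equal totals. The call of Dnajc11 was lost without some single libraries (limma adjusted p between 0.0115 and 0.014).

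Among 8 genes for OPA1 processing and prohibitin partners, 6 fell, and the proteases Yme1l1 (-0.17, limma adjusted p = 0.0502) and Parl (-0.16, 0.101) did not pass, whereas with equal library totals 4 were lower and these 2 proteases higher. Spg7 and Afg3l2, which form the m-AAA protease of the inner membrane, fell from 441 ± 33 (SD, n = 5) to 201 ± 24.8 RPKb (-1.13 ± 0.09 SE, adjusted p = 3.69e-07) and from 907 ± 37.4 to 497 ± 62.9 RPKb (-0.88 ± 0.08, 2.16e-06). Letm1, an inner-membrane ion exchange protein (-1.12 ± 0.10), and Stoml2, which binds cardiolipin and prohibitins (-0.72 ± 0.07), fell as well. Stoml2 shares 502 exonic bases with Gm17599 on the opposite strand. The stress-activated protease Oma1 was low, at 56.2 ± 3.04 RPKb in Control and 38.5 ± 4.48 in AdCKO (-0.54 ± 0.09, adjusted p = 0.000161).

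Of 6 other genes listed for fusion, whether they promote or restrain it, 5 were tested and 4 fell. With equal library totals 2 were called lower and 0 higher. Fam73b, now named Miga2, an outer-membrane protein that promotes fusion and binds lipid droplets in adipocytes, fell from 624 ± 54.6 (SD, n = 5) to 249 ± 20.9 RPKb (-1.32 ± 0.08 SE, limma adjusted p = 6.2e-08), more than any of the 10 genes above. Mtch2, an outer-membrane carrier homologue, fell from 1246 ± 46.4 to 724 ± 89.4 RPKb (-0.79 ± 0.09). Pld6, a cardiolipin hydrolase of the outer membrane, fell from 18.9 ± 2.45 to 13.1 ± 1.63 RPKb (-0.50 ± 0.11). The ubiquitin ligase Mul1 (-0.40 ± 0.10, adjusted p = 0.00398) fell with overlapping groups, its direction turned with equal totals (0.08), and the call was lost without Control 2, 4 or 5 (adjusted p between 0.011 and 0.0117).

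For fission, 13 other genes were listed, whether they promote or restrain it. Of these, 11 were tested, 7 fell and 0 rose (limma, also 0 at an unadjusted p under 0.05). With equal library totals 4 were called lower and 4 higher. Mtfp1, an inner-membrane protein that promotes division, fell from 404 ± 55.5 (SD, n = 5) to 193 ± 23.3 RPKb (-1.06 ± 0.11 SE, limma adjusted p = 3.56e-06). Mief2, a receptor that recruits DRP1, fell from 205 ± 10.5 to 123 ± 13.9 RPKb (-0.74 ± 0.08). The actin nucleator Spire1 (-0.75 ± 0.08) and Akap1, which anchors protein kinase A at the outer membrane (-0.98 ± 0.13), fell as well. These 4 kept their direction on the 3 scales. Mief1 (-0.32), Mtfr1 (-0.27) and March5 (-0.34) also fell, but lay at 0.15, 0.21 and 0.14 with equal totals. Each of them lost its call without some single libraries (limma adjusted p between 0.0104 and 0.0266).

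Of 7 transport and tethering genes, 4 fell and 1 rose with values as deposited, whereas 0 were called lower and 3 higher with equal library totals. Rhot2, an outer-membrane GTPase of the motor complex, fell from 375 ± 20.7 (SD, n = 5) to 238 ± 30.7 RPKb (-0.66 ± 0.09 SE, limma adjusted p = 3.79e-05), although 118 of its exonic bases are shared with Wdr90 on the same strand. Rmdn3, which tethers mitochondria to the endoplasmic reticulum, fell from 983 ± 56.8 to 627 ± 80.4 RPKb (-0.66 ± 0.09). With equal totals Rhot2 (-0.18, adjusted p = 0.0835) and Rmdn3 (-0.17, 0.08) were not called. The motor adaptor Trak1 (-0.37 ± 0.07) and the tether Vapb (-0.29 ± 0.06) fell on the deposited scale, but lay at 0.11 and 0.19 with equal totals. Pdzd8, a lipid-transfer protein of the endoplasmic reticulum at contact sites, rose from 39.2 ± 1.65 to 46.2 ± 2.46 RPKb (0.23 ± 0.06, adjusted p = 0.00753). That call was lost (adjusted p between 0.0129 and 0.0208) without any one of Control 1 to 4 or AdCKO 1, 2, 3 or 5.

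**Figure D5:**
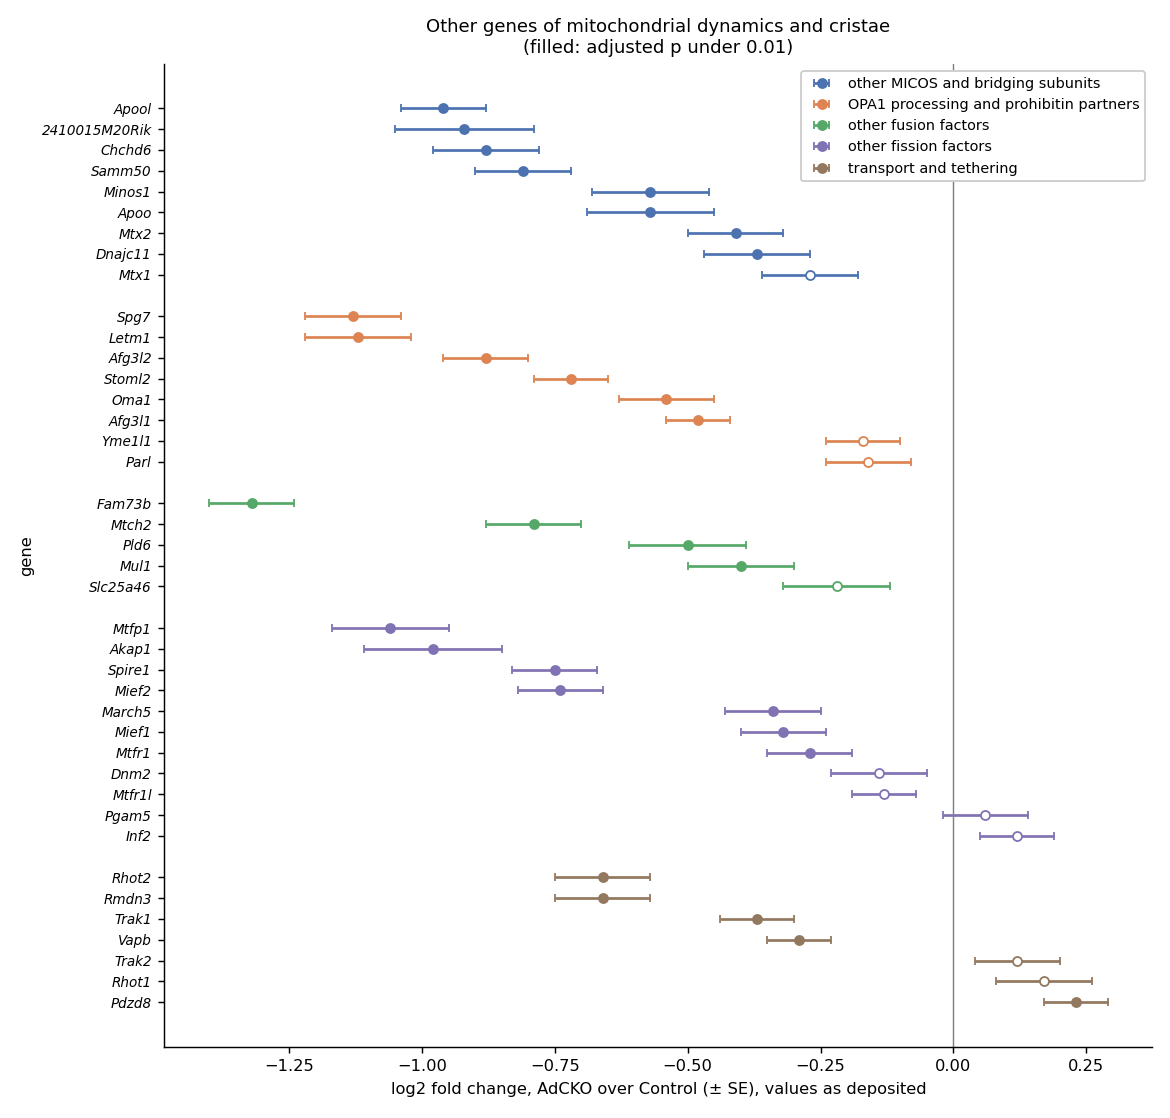
Log2 fold change, AdCKO over Control, with its SE (horizontal axis, values as deposited) for the 40 tested genes (vertical axis) of 5 lists of mitochondrial dynamics and cristae, coloured by list. Filled points passed an adjusted p under 0.01; 29 lie below 0 and 1, Pdzd8, above, while the direction of 14 genes, among them Mul1, Trak1 and Vapb, turns with the scaling.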

How the data were processed

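Polyadenylated RNA of iBAT in 5 Control and 5 AdCKO libraries was analysed. Groups and replicate numbers came from the sample labels. The authors aligned reads with STAR to mm9, built tag directories with HOMER, counted reads on exons by iRNA-seq and used DESeq2 for normalization. What they deposited is a signal, normalized reads per kb, which is no longer a count. None was 0 (smallest 0.0532), and low values did not fall on whole-read steps (17.9% to 20.1% within 0.1 of a step, 20% by chance), so no count test was run. On log2(value + 1), the change of low genes is understated. Deposited columns with the authors' means, fold changes and adjusted p-values, and their lists of called genes, were not used.

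Genes with a mean of at least 10 in either group were tested with limma 3.58.1 in R 4.3.3 (intensity trend, two-sided) on log2(value + 1), with Benjamini-Hochberg adjustment over 11244 genes and a threshold of 0.01. The fit was checked on simulated data. Pair ratios were compared with exact permutation tests at a threshold of 0.05. The sources give 5 per group without stating that each library is a separate mouse, so p-values measure the spread between these samples, which may be technical. Alternatives were a pseudocount of 0.1 or 10, no filter, equal totals, quantile normalization, no trend, a robust trend, a replicate block, each library left out, an adjusted p of 0.05, and AdCKO limited to replicates 3 and 5.

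The 10 genes, the lists, the ratios and the motifs were chosen with earlier results of these data known. Named genes are the 10, Crls1, those of the ratios, at most 4 called genes with the smallest p per further list with any that goes against its list, 2 per comparison list, and the 2 most abundant markers per cell type. Lpl, Cidea, Adipoq, Cidec, Myl1, Mtx1, Mtx2, Dnajc11, Parl, Mief1, Mtfr1, March5, Mtfr2 and overlapping genes were named after their values were seen. Of all listed genes, 6 were matched by an older symbol. Promoters are from RefSeq (GRCm38.p6) and were matched by symbol for all 10 genes. Overlapping genes came from GENCODE M1 on the build of the files, and transcripts were aligned to that genome with minimap2 2.31 to find copies. Isoforms cannot be told apart, since 1 transcript per gene was counted. Plots were made in Python 3.11.15 (matplotlib 3.10.9).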

Additional observations from a re-analysis of the deposited data

Results flagged for a closer look

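Of 36 sets of 5 libraries tested (the 10 genes, Crls1 and the 7 ratios in each group), 4 held a library whose distance from the nearest of the other 4 was large for the range of its group by Dixon's criterion, and chance gives about 1 in 20. Opa1 was highest in Control 1 (407 RPKb), Phb was highest in Control 2 (971 RPKb), the log2 ratio of Mfn2 over Mfn1 was lowest in AdCKO 3 (2.11), and the log2 ratio of Opa1 over Dnm1l was lowest in Control 3 (0.47). Without Control 2 the log2 fold change of Phb was -0.31 and no longer called (limma adjusted p = 0.0172). Without the flagged library, Opa1 and both ratios kept their direction and stayed past their thresholds.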

How the results depend on the processing

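Scaling had the largest effect. With equal library totals 2 of the 10 genes were called lower and 3 higher, with quantile normalization 3 were lower, and with AdCKO limited to replicates 3 and 5, chosen after seeing the data, 3 were lower. Of all tested genes, 9.77% were lower and 60.6% higher with equal totals, and 31.2% and 22.0% with quantile normalization. These shares were not counted for the other alternatives, among them AdCKO 3 and 5, the replicate block and each library left out. For the 43 further genes the calls were 14 lower and 9 higher with equal totals, and 18 lower and 0 higher with AdCKO 3 and 5. Equal totals reversed Mfn1 (0.31), Dnm1l (0.24), Mff (0.10) and Phb (0.11), and leaving out Control replicate 1 reversed Fis1 (-0.04). The single higher call, Pdzd8, was also lost (0) with quantile normalization, a robust trend and the replicate block, and leaving out 1 library gave 0 to 1. Leaving out 1 library left 6 to 8 of the 10 genes lower. A pseudocount of 0.1 or 10, no filter, no trend and an adjusted p of 0.05 left 8 of them lower and 0 higher.

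Same-numbered Control and AdCKO libraries did not deviate together (r between -0.268 and 0.098, none best matched with its own number), so the numbers do not pair the samples. With the replicate block, 6 of the 10 genes (without Dnm1l, limma adjusted p = 0.0172, and Phb, 0.0148) and 24 of the further genes were lower. The share of all tested genes called lower in that fit was not counted. The paired exact test of the ratios cannot reach its threshold with 5 pairs. Under this pairing the log2 differences were -0.47 (Mfn2 over Mfn1), -0.40 (Opa1 over Mfn2), -0.81 (Opa1 over Dnm1l), -0.45 (Mff over Fis1), -0.57 (Immt over Chchd3), -0.15 (Phb2 over Phb) and -0.37 (Oma1 over Yme1l1). With AdCKO 3 and 5 they were, in this order, -0.53, -0.27, -0.72, -0.41, -0.62, -0.19 and -0.50. None passed (adjusted p by exact permutation 0.14 for Mff over Fis1 and 0.056 for the others). With so few AdCKO libraries the smallest possible p passes after adjustment only if every pair reaches it, so this test could not decide here. Leaving out 1 library moved Phb2 over Phb between -0.18 and -0.12, and it did not pass in 6 of 10 cases. Depth is unknown and counting error could not be given.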

Other observations

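Beside the genes of shape, all 36 listed subunits of respiratory complex I fell in AdCKO iBAT, with a median log2 fold change of -1.0 (limma). Of all tested genes, 28.0% were called lower and 25.6% higher. Ndufv1, the subunit that binds NADH, fell from 4712 ± 96.7 (SD, n = 5) to 1572 ± 298 RPKb (-1.60 ± 0.11 SE, limma adjusted p = 1.45e-07), and Ndufb5 fell from 2131 ± 110 to 894 ± 79.9 RPKb (-1.26 ± 0.08, 7.07e-08). Of these subunits, 35 kept their direction with equal totals and after quantile normalization and 23 were called lower on all 3 scales. The shares of all tested genes that did so were not counted.

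Of 22 genes of mitochondrial protein import, 11 fell and 0 rose (limma; 2 were higher at an unadjusted p under 0.05), with a median of -0.33. With equal library totals 3 were called lower and 7 higher, and with quantile normalization 8 lower and 3 higher. Of all tested genes, 28.0% were lower and 25.6% higher as deposited. These shares were 9.77% and 60.6% with equal totals, and 31.2% and 22.0% with quantile normalization. Dnajc19, a partner of the import motor that also binds prohibitins, fell from 177 ± 14.3 (SD, n = 5) to 89.8 ± 4.61 RPKb (-0.97 ± 0.07 SE, limma adjusted p = 2.4e-07), and Grpel1, the nucleotide exchange factor of that motor, from 800 ± 39 to 446 ± 32.7 RPKb (-0.84 ± 0.07, 5.71e-07). The direction of 11 of the 22 turned with the scaling, and 3 were called lower on all 3 scales, again without a count over all tested genes.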
